A study of Oryza sativa with 36 samples.

Results

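The MADS-box transcription factors of rice were described in leaf and root of seedlings. Members were genes whose symbol or alias was MADS followed by a number, with or without the Os prefix. The gene table held 31 such genes, 1 of them, MADS57, was left out, and 30 remained. They carried 38 of the 22436 probe sets tied to exactly 1 gene, and stood among 17905 genes so measured. The 4 genes with more than 1 probe set, MADS14, MADS15, MADS23 and MADS27, were each represented by the probe set with the highest mean over the 36 arrays. No expression value other than this mean entered the choice among probe sets. Members, lists and tests were chosen with earlier results of these data known.

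MADS-box factors bind DNA as dimers and higher complexes, and most of the rice genes are best known for giving floral organs their identity. The FUL-like, SOC1-like and SVP-like subfamilies act in the change from vegetative to reproductive growth. The ANR1-like subfamily is known from Arabidopsis and rice for roles in root growth and the response to nitrate. No sequence is printed, because none was available for these genes.

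The 36 arrays formed 12 groups of 3, crossing the genotypes 9311, LYP9 and PA64s with leaf and root and with 2 nutrient states. From background knowledge, LYP9 is a hybrid of 9311 and PA64s. All seedlings were raised for 5 days in a nutrient soil mix, and 15 of each variety then went into each of 12 barrels filled with poor soil. At an age of 14 days, 6 barrels received 10 g urea and 10 g compound fertiliser. These gave the groups called nutrient-sufficient or heterotic in the labels, here fertilised, and the others gave the nutrient-deficient or non-heterotic groups, here unfertilised. Whether replicates 1 to 3 came from separate plants or barrels is not stated in the labels, so the p-values measure only the spread between these samples.

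Values were log2 of the deposited array intensities. Before the log, leaf arrays had medians of 66.9 to 75.4 and root arrays of 66.0 to 74.5. Arrays of the same group correlated at 0.9753 to 0.9894 for leaf and 0.9735 to 0.9870 for root. All 4 measured leaf markers, among them the Rubisco small subunit RBCS, were called higher in leaf, and both measured root markers, the silicon transporters LSI1 and LSI2, were called higher in root. The mean log2 level of the leaf markers lay between 12.4 and 13.2 in the 6 groups of leaf, and in those of root between 5.67 and 6.51. That of the root markers lay between 11.4 and 12.4 in root, and in leaf between 5.88 and 6.46. In whole leaves and roots, fewer cells of a type and less RNA per cell cannot be told apart.

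The first question was which members could be measured in seedling leaf and root. A member was counted as above the filter level in a group when all 3 arrays exceeded the level that the upper 60% of probe sets passed, 5.753 in leaf and 5.703 in root. By this rule 10 of the 30 members were above it in all 12 groups, 11 in all 6 leaf groups and 13 in all 6 root groups, while 14 were above it in no group. Over all probe sets, 48.5% were above it in all 6 leaf groups, 49.5% in all 6 root groups and 31.3% in none. Background signal was not analysed here, so a value under the level is not called absence. Levels are compared within a gene and not between genes, since each probe set has its own brightness.

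The 10 members above the level everywhere came from the class B genes (MADS2, MADS4 and MADS16, known for petal-like lodicules and stamens), the FUL-like genes (MADS14 and MADS18), the SVP-like genes (MADS22, MADS47 and MADS55) and the SOC1-like genes (MADS50 and MADS56). All 3 SVP-like and both SOC1-like members were among them. The ANR1-like MADS25 and MADS27 were above the level in every root group and in no leaf group. MADS26, an AGL12-like gene known in rice for a role in stress responses, was above it in all 6 root groups and in 4 leaf groups. The FUL-like MADS15 was above it in all 6 leaf groups, and the SEPALLATA-like MADS1 and MADS8 in 2 leaf groups each, and these 3 were above it in no root group.

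The 14 members above the level in no group were mostly floral and ovule genes. They were the SEPALLATA-like MADS5, MADS7 and MADS34, the 4 AGAMOUS-like and ovule genes MADS3, MADS13, MADS21 and MADS58, the AGL6-like MADS6 and MADS17 and the Bsister genes MADS29 and MADS30, together with MADS20, MADS23 and MADS33. Their group means ran from 3.09 for MADS29 in fertilised 9311 roots to 5.72 for MADS23 in unfertilised LYP9 roots. The highest single array among them was at 5.95, reached by MADS23 in unfertilised PA64s roots and by MADS33 in fertilised LYP9 roots.

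**Figure D1:**
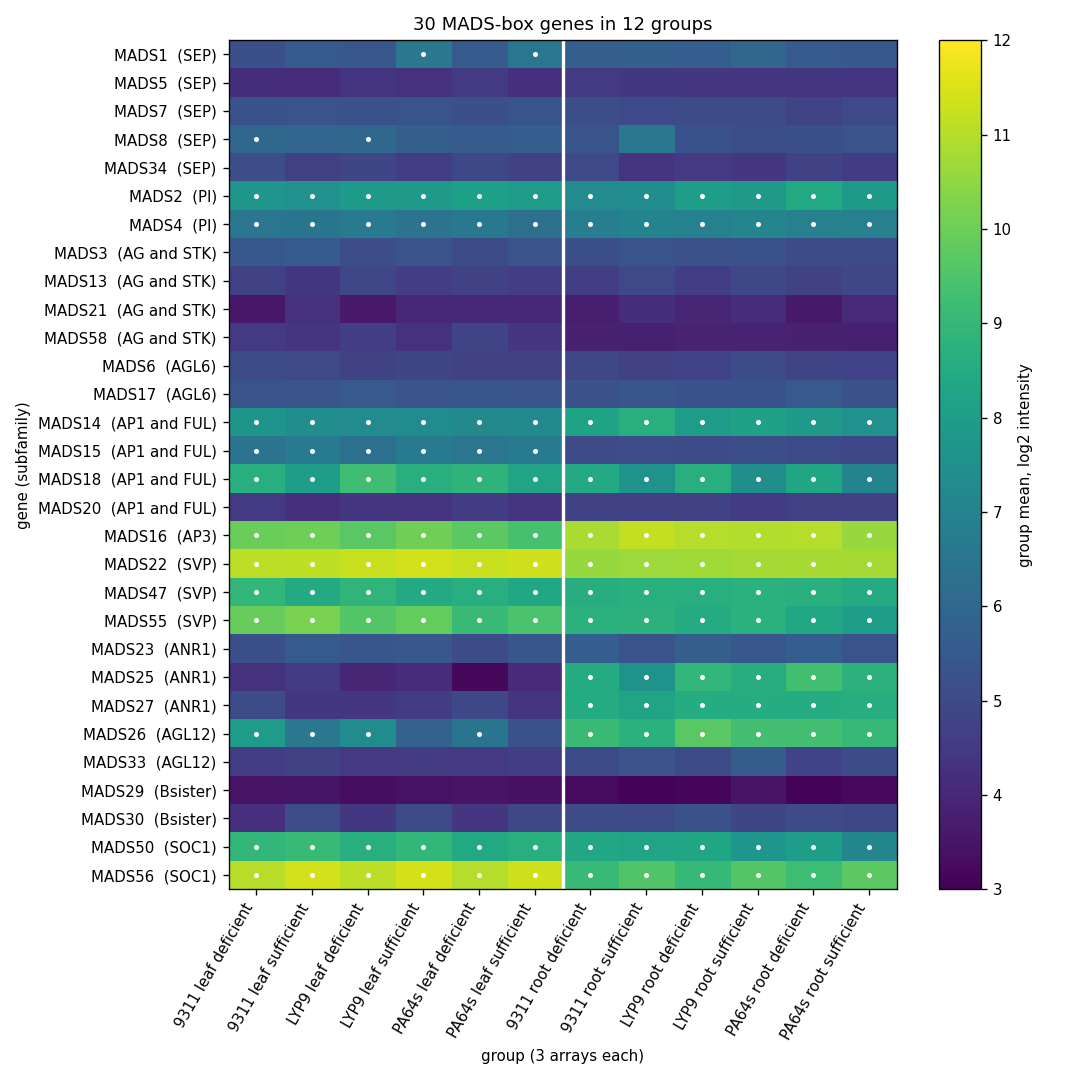
Group means (colour, log2 intensity) of the 30 members, one per row and sorted by subfamily, in the 12 groups, one per column, leaf on the left of the white line. White dots mark the groups in which all 3 arrays exceeded the filter level. MADS25 and MADS27 carry dots in root columns only and MADS15 in leaf columns only, and 14 genes carry none.

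Leaf and root were compared over all 36 arrays. Leaves had more of the SOC1-like MADS56 and MADS50 and of the SVP-like MADS55, and roots had more of MADS25, MADS27, MADS26 and the class B gene MADS16. Of the 14 members in limma's joint fit, MADS25 and MADS27 passed its filter level of 5.798 through root alone and MADS15 through leaf alone, so their differences were fixed by their entry and are left out of the count. Of the 11 others 9 were called at an adjusted p under 0.05, against 81.4% of all 34316 probe sets tested. The 5 called higher in leaf and the 4 called higher in root stand beside 43.9% and 37.5% of all probe sets, so the shares lie near the background. The median log2 difference of the 11, leaf minus root, was 0.00, and it was 0.06 over all probe sets tested.

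MADS56 (LOC4349237), which delays flowering under long days in rice, lay between 10.7 and 11.7 in the 18 leaf arrays with a median of 11.2, and between 8.82 and 9.92 in the 18 root arrays. The tissues did not overlap. Its level in leaf was 3.63-fold that in root (log2 1.86 ± 0.06 SE, adjusted p = 2.02e-22). MADS50 (LOC4331445), a SOC1-like promoter of flowering, was at 8.21 to 9.19 in leaf and 6.95 to 8.59 in root, with overlapping arrays and a 1.76-fold higher mean in leaf (log2 0.81 ± 0.05 SE). MADS55 (LOC4340495), an SVP-like gene, was at 8.52 to 10.4 in leaf and 7.61 to 9.38 in root, 2.21-fold higher in leaf (log2 1.15 ± 0.11 SE, adjusted p = 6.31e-11). The SVP-like MADS22 (LOC4330805) was called higher in leaf at log2 0.51 ± 0.06 SE, but quantile normalisation moved it to 0.08 and ended the call (adjusted p = 0.163). The FUL-like MADS18 (LOC4343851) was higher in leaf at log2 0.69 ± 0.09 SE, and its arrays overlapped between the tissues.

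MADS15 (LOC4342214), a FUL-like gene of meristem identity, was at 6.01 to 6.93 in leaf and 4.79 to 5.39 in root. The tissues did not overlap, and the log2 difference was 1.49 ± 0.07 SE, with root values under the filter level. The other 3 probe sets of this gene lay under the filter level in both tissues and differed by log2 -0.05, 0.33 and -0.42, so the leaf signal was seen by 1 of 4 probe sets. The name of that probe set carries the suffix that Affymetrix gives where some probes may also bind other transcripts, as does the probe set used for MADS14. The only probe sets of MADS22 and MADS30 carry another suffix, given where probes are shared between transcripts.

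MADS25 (LOC4335427), the ANR1-like gene with the largest tissue difference among the 14 members tested, was at 7.18 to 9.79 in the root arrays with a median of 8.67. In leaf it ran from 2.64 to 4.70. Leaf minus root was log2 -4.59 ± 0.12 SE, a difference given as a description, whose size is uncertain because all 18 leaf arrays lie under the filter level. MADS27 (LOC4329771), a second ANR1-like gene linked to nitrate responses in rice roots, was at 8.01 to 8.99 in root and 4.05 to 5.29 in leaf. Its difference was log2 -3.87 ± 0.08 SE, with the same limit, since its 18 leaf arrays were under the level as well. Its other probe set, not kept in the joint fit, averaged 7.05 in root and 3.72 in leaf. The last ANR1-like member, MADS23, stayed between 4.98 and 5.95 in all arrays. MADS25 and MADS27 were above every leaf array in every root array, whereas MADS23 overlapped.

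MADS26 (LOC4344493) was at 8.42 to 9.98 in root with a median of 9.25, and at 5.12 to 8.45 in leaf with a median of 6.55. Its leaf mean was lower by log2 -2.61 ± 0.10 SE (adjusted p = 1.20e-20), and 1 unfertilised 9311 leaf array reached the lowest root arrays. MADS16 (LOC4342047), the class B gene that specifies stamens and lodicules, was at 9.23 to 10.2 in leaf and 10.4 to 11.6 in root, without overlap. Its root mean exceeded its leaf mean 2.17-fold (log2 -1.12 ± 0.09 SE). The class B gene MADS4 (LOC4338842) was at 6.28 to 6.71 in leaf and 6.75 to 7.17 in root, a small difference of log2 -0.46 ± 0.05 SE without overlap. The third class B gene, MADS2 (LOC4325001), did not pass the test, at log2 0.00 ± 0.07 SE, and neither did the SVP-like MADS47 (LOC4331872) at 0.00 ± 0.05 SE. MADS14 (LOC4334140), a FUL-like gene known for marking the switch to flowering, was higher in root by log2 -0.69 ± 0.08 SE. Its second probe set gave -0.51 and was called as well, and its 2 dimmest ones gave -0.49 and 0.03 and were not tested.

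**Figure D2:**
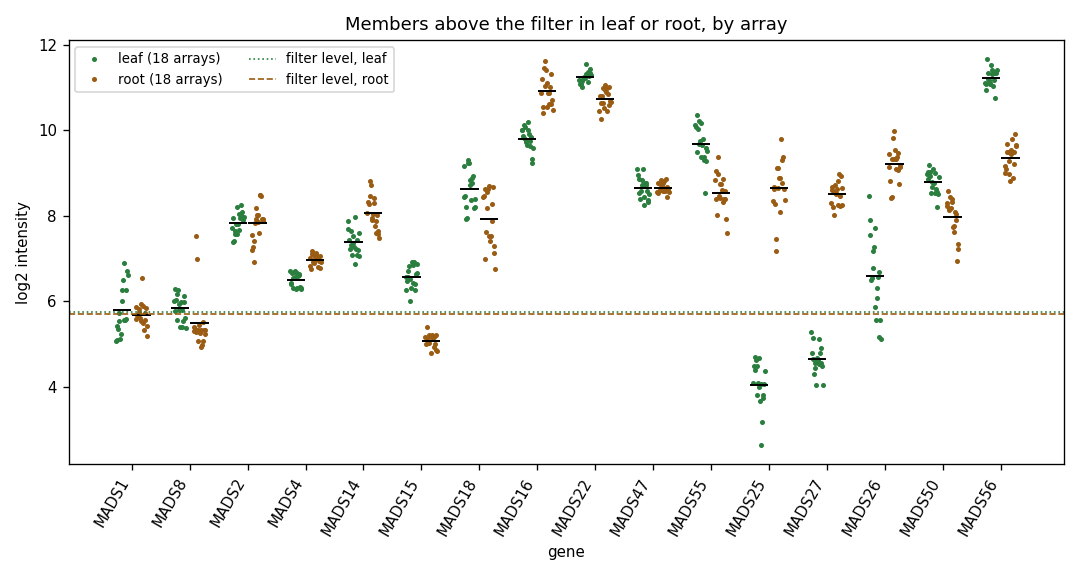
Log2 intensity (y axis) of the 16 members that exceeded the filter level in at least 1 group (x axis), with 1 point per array, green for 18 leaf and brown for 18 root arrays, and black bars for tissue means. The dotted and dashed lines are the filter levels of 5.753 in leaf and 5.703 in root. The root points of MADS25 and MADS27 all lie above the lines and their leaf points below them, and the points of MADS56 separate the other way.

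The markers of other plant parts were measured beside these genes, since most members are known from flowers. Of 4 panicle and flower markers measured, DL, which sets carpel identity, and FZP, which sets spikelet identity, were under the filter level in the means of all 12 groups. The other 2 were above it in the means of all 12. LOG, an enzyme that activates cytokinin and maintains meristems, had leaf group means of 9.87 to 10.6, with root ones of 7.46 to 8.34. APO2, the rice LEAFY gene, had leaf group means of 6.13 to 6.24, with root ones of 6.46 to 6.83. Its lowest leaf array, at 5.49, was under the level. As a list the 4 had group averages of 6.11 to 6.34 in leaf, and of 5.95 to 6.26 in root. Of 6 shoot apex and stem markers, 3 were above the level in the means of all leaf groups and 6 in those of all root groups. OSH1, the homeobox gene of the shoot meristem, had group means of 5.503 to 5.98 in leaf, and of 5.73 to 5.91 in root. Single root arrays of OSH1 were under the level, the lowest at 5.38. The receptor kinase gene FON1, which limits meristem size, was at 8.35 to 9.04 in leaf groups, with root groups at 8.99 to 10.1. The branching regulator LAX1 was at 6.83 to 7.02 in leaf groups, with root groups at 6.69 to 7.05. The homeobox genes OSH43 and OSH71 were at 6.92 to 7.63 and 3.28 to 3.92 in leaf, and at 6.503 to 6.702 and 8.26 to 8.86 in root. The list of 6 had averages between 6.23 and 6.35 in leaf groups and between 7.12 and 7.39 in root groups. None of the 4 shoot apex and stem or 2 panicle markers tested in leaf was called in the nutrient response of any single genotype, against 11.9%, 8.85% and 7.73% of all probe sets, though 1 or 2 of these 6 had an unadjusted p under 0.05 in each. In the mean response over the genotypes, LOG was called lower in leaf (log2 -0.57 ± 0.12 SE, adjusted p = 0.00144) and in root (-0.60 ± 0.11 SE, adjusted p = 0.00103), and OSH43 higher in leaf (0.47 ± 0.11 SE, adjusted p = 0.00366).

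The next question was how fertiliser changed the members in the leaf of each genotype. MADS26 fell in all 3 genotypes, MADS18 fell in all 3, and the floral gene MADS1 rose in LYP9 and PA64s. In 9311 limma called 3 of 14 members, all lower, where 11.9% of all probe sets were called. In LYP9 it called 3, 1 higher and 2 lower, against 8.85%, and in PA64s 3, 1 higher and 2 lower, against 7.73%. The 1 called higher in each was MADS1, which entered the fit through the fertilised leaves of these genotypes alone. The members' median log2 change was 0.00 in 9311, 0.10 in LYP9 and 0.05 in PA64s, beside 0.06, 0.07 and 0.07 over all probe sets tested. Markers of leaf and root moved in the same comparisons. The silicon transporter LSI1, a root marker, was the 1 of 2 root markers tested in leaf and was called higher in fertilised leaves of 9311 (log2 1.16 ± 0.26 SE, adjusted p = 0.00950) and PA64s (0.98 ± 0.26 SE, adjusted p = 0.0324), with leaf group means of 7.72 to 8.91, while the root marker LSI2 was at 3.91 to 4.20. Of 4 leaf markers, the photosystem I gene PSAH was called higher in 9311 (0.63 ± 0.17 SE) and PA64s (0.83 ± 0.17 SE), and none was called in LYP9, where 0 had an unadjusted p under 0.05. The part of these markers in the members' responses was not tested.

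MADS26 in 9311 leaves was at 8.45, 7.55 and 7.89 unfertilised and at 6.50, 6.55 and 6.77 fertilised. In LYP9 leaves it was at 7.17, 7.27 and 7.72 unfertilised and at 5.86, 5.56 and 6.07 fertilised. In PA64s leaves it was at 6.31, 6.56 and 6.67 unfertilised and at 5.16, 5.56 and 5.12 fertilised. Every fertilised array was below every unfertilised array of its genotype, and all 3 fertilised PA64s arrays and 1 fertilised LYP9 array were under the filter level. The change was log2 -1.36 ± 0.22 SE in 9311 (2.56-fold lower, adjusted p = 0.00101), -1.56 ± 0.22 SE in LYP9 (adjusted p = 0.000535) and -1.24 ± 0.22 SE in PA64s (adjusted p = 0.00294). All of these calls held without each array in turn, with log2 changes of -1.57 to -1.11 in 9311, -1.68 to -1.39 in LYP9 and -1.38 to -1.16 in PA64s.

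MADS18, a FUL-like gene that promotes the floral transition in rice, was at 9.17, 8.44 and 8.46 in unfertilised 9311 leaves and at 8.20, 7.92 and 7.96 in fertilised ones. In LYP9 it went from 9.24, 9.30 and 9.23 to 8.72, 8.84 and 8.36, and in PA64s from 8.77, 8.88 and 8.92 to 8.19, 8.39 and 8.20. The nutrient states did not overlap in any genotype. MADS18 was 1.58-fold lower in fertilised 9311 (log2 -0.66 ± 0.17 SE, adjusted p = 0.0199), 1.54-fold lower in LYP9 (adjusted p = 0.0356) and 1.52-fold lower in PA64s (adjusted p = 0.0430). These calls lay close to the threshold. The 9311 call was lost without replicate 2 or 3 of the fertilised or replicate 1 of the unfertilised 9311 leaves (log2 -0.63 to -0.42). The LYP9 call was lost without replicate 1 or 3 of the fertilised or any of the unfertilised LYP9 leaves (-0.66 to -0.48), and the PA64s call without any 1 of 12 arrays (-0.67 to -0.57), namely all 6 of PA64s leaves, replicates 2 and 3 of the fertilised 9311 leaves, replicate 1 of the fertilised and all 3 of the unfertilised LYP9 leaves. At unchanged folds, the LYP9 call was also lost with all 36 arrays in 1 fit (adjusted p = 0.0546), and the PA64s call with no filter (0.0574) and with all 36 arrays in 1 fit (0.0640).

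MADS1 (LOC4332059), a SEPALLATA-like gene that specifies lemma and palea, was at 5.11, 5.23 and 6.01 in unfertilised and 6.26, 6.50 and 6.90 in fertilised LYP9 leaves. In PA64s it went from 5.55, 5.55 and 5.58 to 6.26, 6.70 and 6.60, and in 9311 from 5.08, 5.43 and 5.10 to 5.36, 5.54 and 5.73. Fertilised LYP9 and PA64s leaves were the only leaf groups with all 3 arrays above the filter level, and the 9311 states overlapped. The rise was log2 1.104 ± 0.21 SE in LYP9 (adjusted p = 0.00496) and 0.96 ± 0.21 SE in PA64s (adjusted p = 0.0124), and 0.34 ± 0.21 SE in 9311 did not pass. MADS1 passed the filter in leaf, at a mean of 5.81 against the level of 5.753, through those 2 groups alone, and the rise is counted from values under the level, so its size is uncertain. With no filter, where its entry does not depend on its level, the adjusted p was 0.00709 in LYP9 and 0.0165 in PA64s. The PA64s call was lost without replicate 3 of its fertilised leaves (0.92). With 1 leaf array left out in turn, MADS1 was tested in 16 of 18 fits. The 9311 response minus the PA64s response was log2 -0.62 ± 0.30 SE (adjusted p = 1.00), so a difference between the genotypes was not shown.

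MADS47, an SVP-like gene known as a brake on brassinosteroid responses in rice, was at 9.11, 8.96 and 8.86 in unfertilised and 8.53, 8.39 and 8.58 in fertilised 9311 leaves. These arrays did not overlap, and the change was log2 -0.47 ± 0.14 SE (adjusted p = 0.0338), a call lost without any 1 of the 6 arrays of 9311 leaves (-0.53 to -0.41). The values of -0.40 ± 0.14 SE in LYP9 and -0.29 ± 0.14 SE in PA64s did not pass. The LYP9 change was called after quantile normalisation (-0.50, adjusted p = 0.0405), with all 36 arrays in 1 fit (adjusted p = 0.0266) and without replicate 3 of the fertilised LYP9 leaves (-0.54, adjusted p = 0.0284). Without replicates 2 or 3 of the fertilised or 1 of the unfertilised 9311 leaves the number of members called in 9311 was 1, and without replicates 2 or 3 of the fertilised PA64s leaves it was 1 in PA64s. The 10 other members tested in leaf were called in no genotype, with log2 changes from -0.37 for MADS16 in PA64s to 0.46 for MADS15 in LYP9. Of these, MADS16 in PA64s was called after quantile normalisation (-0.44, adjusted p = 0.0294) and median centring (-0.44, adjusted p = 0.0412).

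In root MADS18 fell in all 3 genotypes and MADS50 fell in LYP9 and PA64s. limma called 1 of 13 members in 9311, against 5.89% of all probe sets, 2 in LYP9, against 3.46%, and 2 in PA64s, against 3.33%, all of them lower. The members' median log2 change was 0.04 in 9311, -0.02 in LYP9 and -0.29 in PA64s, beside 0.05, 0.01 and -0.01 over all probe sets tested. MADS2 in PA64s roots changed by log2 -0.56 without overlap of the states and was not called. It was called without replicate 1 or 3 of the fertilised 9311 roots (adjusted p = 0.0342 and 0.0400).

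MADS18 was at 8.44, 8.46 and 8.62 in unfertilised and 6.99, 7.63 and 8.19 in fertilised 9311 roots. In LYP9 roots it went from 8.55, 8.63 and 8.71 to 7.52, 7.41 and 7.53, and in PA64s roots from 8.28, 7.89 and 8.68 to 7.12, 7.29 and 6.76. The states did not overlap in any genotype, and the fertilised 9311 arrays were spread most widely (SD 0.60, n = 3). The change was log2 -0.90 ± 0.24 SE in 9311 (1.87-fold lower, adjusted p = 0.0384), -1.14 ± 0.24 SE in LYP9 (adjusted p = 0.0164) and -1.22 ± 0.24 SE in PA64s (2.34-fold, adjusted p = 0.00939). The 9311 call was lost with no filter (adjusted p = 0.0533) and without any of 6 arrays, 5 from 9311 roots (all but replicate 3 of the fertilised ones) and replicate 2 of the fertilised LYP9 roots (log2 -0.94 to -0.60), and without 5 of them 0 members were called in 9311 roots. Without the other, replicate 1 of the fertilised 9311 roots, MADS25 was called in its place (-1.23, adjusted p = 0.0454). The LYP9 call was lost without replicate 2 of the fertilised or replicate 1 or 2 of the unfertilised LYP9 roots (-1.18 to -1.10), and the PA64s call without replicate 3 of its unfertilised roots (-1.02).

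MADS50 was at 8.18, 8.33 and 8.39 in unfertilised and 7.75, 7.77 and 7.63 in fertilised LYP9 roots. In PA64s roots it went from 8.09, 7.89 and 8.04 to 6.95, 7.23 and 7.35, and in 9311 roots from 8.23, 8.30 and 8.59 to 8.15, 8.16 and 8.45. The states were apart in LYP9 and PA64s and overlapped in 9311. The change was log2 -0.83 ± 0.13 SE in PA64s (1.78-fold lower, adjusted p = 0.00206), a call that held without each array in turn (-0.92 to -0.72), and -0.58 ± 0.13 SE in LYP9 (adjusted p = 0.0220). The LYP9 call was lost without any 1 of its arrays other than replicate 1 of the fertilised roots (-0.65 to -0.54). In 9311 it was -0.12 ± 0.13 SE and did not pass, and the 9311 response minus the PA64s response was 0.71 ± 0.18 SE (adjusted p = 0.299). Without replicate 2 of the fertilised or replicate 1 or 2 of the unfertilised LYP9 roots, 0 members were called in LYP9, and without replicate 3 of either state 1 was.

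MADS56 was higher in every fertilised array than in every unfertilised array in all 3 roots and all 3 leaves, without a call in any single genotype in the fits per tissue. In roots it went from 8.99, 9.16 and 9.08 to 9.48, 9.68 and 9.49 in 9311, from 8.97, 9.29 and 8.82 to 9.44, 9.53 and 9.79 in LYP9, and from 8.88, 9.22 and 9.49 to 9.92, 9.63 and 9.65 in PA64s. The log2 changes in root were 0.47, 0.56 and 0.54, each ± 0.16 SE, with adjusted p of 0.0864, 0.0659 and 0.0808. They lay close to the threshold, and with all 36 arrays in 1 fit all 3 were called (adjusted p = 0.0461 in 9311, 0.0240 in LYP9 and 0.0282 in PA64s). The LYP9 change was also called without replicate 1 or 3 of the unfertilised PA64s roots (adjusted p = 0.0421 and 0.0493), and the PA64s change without replicate 3 of its unfertilised roots (0.68, adjusted p = 0.0447). In leaf they were 0.35 in 9311, 0.30 in LYP9 and 0.38 in PA64s, each ± 0.13 SE. Of the 14 members in the joint fit, 2 kept the same direction without overlap in all 6 pairs of groups, MADS56 upward and MADS18 downward, where 0.944% of all probe sets did so.

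**Figure D3:**
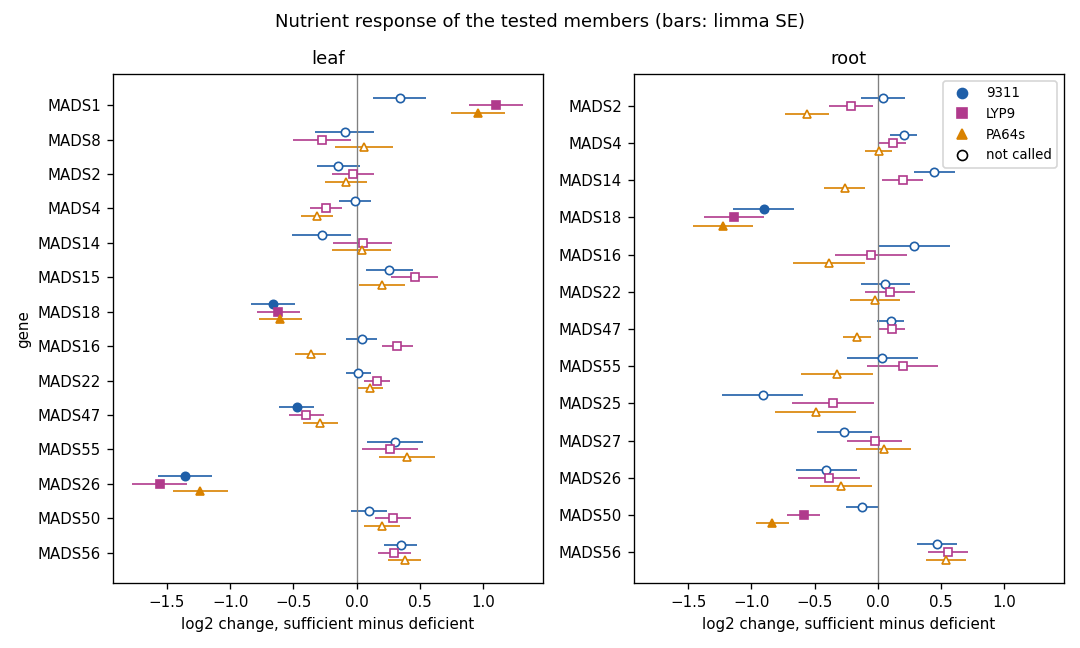
Log2 change with fertiliser (x axis, fertilised minus unfertilised) of the members tested (y axis) in leaf, left, and root, right, with 1 symbol per genotype and limma standard errors as bars. Filled symbols were called at an adjusted p under 0.05. MADS26 has filled symbols left of 0 in leaf only, MADS18 in both tissues and MADS50 in root only.

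The mean response over the 3 genotypes was added after these values had been seen, and serves to describe the members with more arrays per side. In leaf 6 of 14 members were called, 3 higher and 3 lower, against 37.9% of all probe sets, a share near the background. They were MADS26 (log2 -1.38 ± 0.12 SE), MADS18 (-0.63 ± 0.10), MADS47 (-0.39 ± 0.08), MADS1 (0.80 ± 0.12), MADS56 (0.34 ± 0.08) and MADS15 (0.31 ± 0.11). MADS1 is counted here although it entered the fit through its fertilised LYP9 and PA64s leaves alone. Quantile normalisation ended the calls of MADS56 (0.18, adjusted p = 0.0654) and MADS15 (0.22, adjusted p = 0.106), and the MADS15 call was also lost after median centring (0.23) and without any 1 of 9 leaf arrays (0.26 to 0.30). These were replicates 2 and 3 of the fertilised and 1 of the unfertilised 9311, replicates 1 and 3 of the fertilised and 1 of the unfertilised LYP9, and replicate 3 of the fertilised and 2 and 3 of the unfertilised PA64s leaves. The other probe sets of MADS15, under the filter level and not tested, gave 0.15, 0.05 and 0.02. In root 4 of 13 were called, against 17.9% of all probe sets. They were MADS18 (-1.09 ± 0.14), MADS50 (-0.51 ± 0.08), MADS56 (0.52 ± 0.09) and MADS25 (-0.59 ± 0.19). The MADS25 call was lost with no filter (adjusted p = 0.0514) and without any 1 of 11 root arrays (-0.58 to -0.50). These were replicates 2 and 3 of both states of 9311, replicate 3 of the fertilised and 1 and 3 of the unfertilised LYP9, and replicates 2 and 3 of the fertilised and 1 and 2 of the unfertilised PA64s roots. In the same mean responses the leaf markers PSAH (0.60 ± 0.10) and RCA (0.78 ± 0.23) and the root marker LSI1 (0.99 ± 0.15) were called higher in leaf. In root both root markers were called higher, LSI1 (0.53 ± 0.11) and LSI2 (0.79 ± 0.20), and the leaf marker PSAG lower (-0.59 ± 0.13).

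Whether leaf and root responded differently was tested as the mean leaf response minus the mean root response. Here 5 of 14 members were called, 2 higher and 3 lower, where 18.8% of all probe sets were, and 4 of the 11 above the filter level in both tissues. The leaf response of MADS26 was below its root response by a difference of log2 -1.02 ± 0.19 SE (adjusted p = 0.000393), its root response of -0.36 ± 0.14 SE not passing on its own (adjusted p = 0.0895). That root response was called without replicate 3 of the fertilised 9311 roots (-0.46, adjusted p = 0.0136) or of the unfertilised LYP9 roots (-0.42, adjusted p = 0.0463). MADS50 fell in root while its leaf response was 0.20 ± 0.08 SE, and the difference was 0.71 ± 0.11 SE (adjusted p = 3.17e-05). MADS47 differed by -0.40 ± 0.10 SE (adjusted p = 0.00432), with a root response of 0.02 ± 0.06 SE. MADS25, which entered the fit through root alone, had a difference of 1.04 ± 0.25 SE (adjusted p = 0.00355, and 0.00472 with no filter). Its leaf side comes from arrays at 2.64 to 4.70, all under the filter level, and is not read as a leaf response. MADS4 differed by -0.30 ± 0.09 SE (adjusted p = 0.0230), and neither its leaf response (-0.19) nor its root response was called in the fits per tissue. The leaf response was close to the threshold and was called after quantile normalisation (-0.28, adjusted p = 0.00544) and median centring (-0.26, adjusted p = 0.00777), and at the same size with trend and robust moderation (adjusted p = 0.0450), with all 36 arrays in 1 fit (0.0211) and with a replicate block (0.0405). It was called as well without replicate 1 of the fertilised or 2 of the unfertilised 9311 leaves or 2 of the fertilised LYP9 leaves (-0.23 to -0.21). The response of MADS18 was not shown to differ between the tissues, at 0.46 ± 0.18 SE (adjusted p = 0.0654), close to the threshold. It was called without replicate 3 of the fertilised or 2 of the unfertilised roots, of 9311 and PA64s respectively. It was also called without replicate 1 of the unfertilised 9311 or 3 of the fertilised LYP9 leaves. These differences were 0.51 to 0.56 (adjusted p = 0.0131 to 0.0424).

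**Figure D4:**
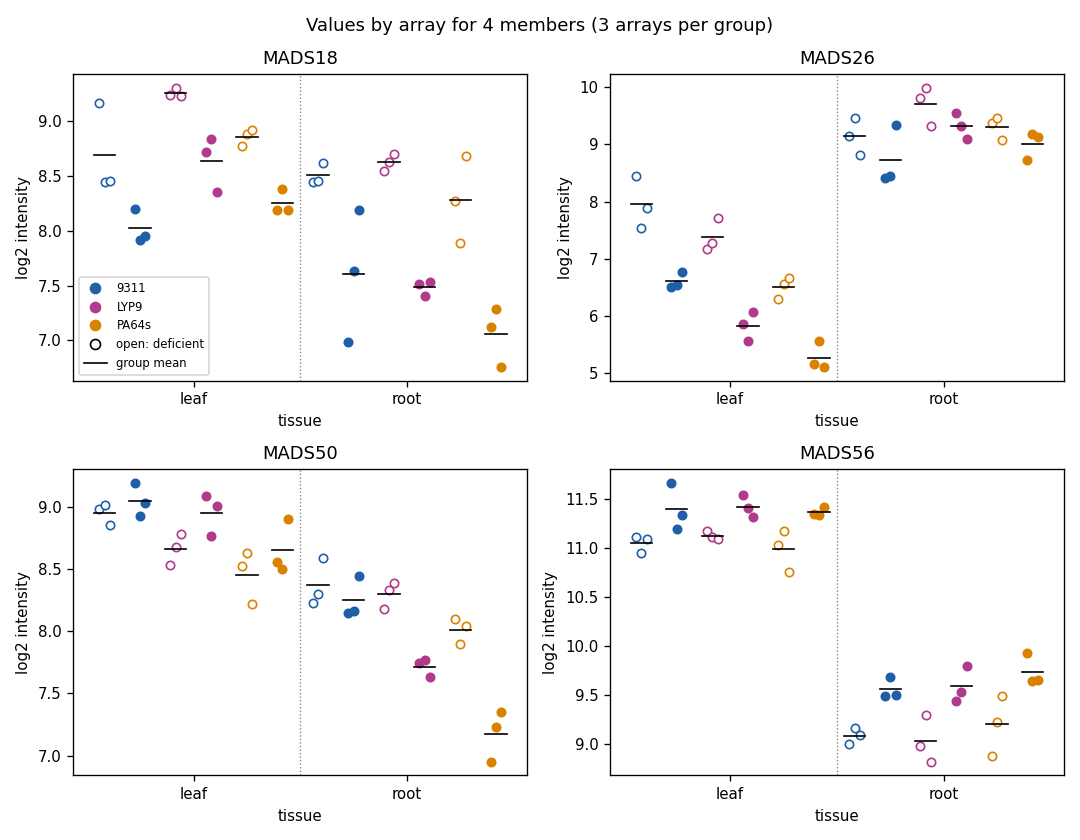
Log2 intensity (y axis) by array of MADS18, MADS26, MADS50 and MADS56 in leaf and root (x axis), with colour for genotype, filled points for fertilised and open points for unfertilised arrays, and black bars for the means of 3 arrays. The filled points of MADS18 lie below the open ones of the same genotype and tissue in all 6 pairs, those of MADS26 in the 3 leaf pairs and those of MADS50 in LYP9 and PA64s roots, while those of MADS56 lie above in all 6.

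The parents 9311 and PA64s were compared over both nutrient states. In leaf 9311 had more MADS26, MADS55, MADS50 and MADS16, and PA64s more MADS1 and MADS2. These 6 of 14 members were called, 4 higher in 9311 and 2 higher in PA64s, where 11.9% of all probe sets were called. MADS1 is among them, though it entered the fit through fertilised LYP9 and PA64s leaves alone. In root 4 of 13 were called against 13.3%, MADS14 and MADS50 higher in 9311 and MADS2 and MADS25 higher in PA64s. The median log2 difference of the members, 9311 minus PA64s, was 0.12 in leaf and 0.05 in root, beside 0.03 and 0.05 over all probe sets tested. In the same comparison of roots, 2 of 3 leaf markers tested were called higher in 9311, the Rubisco gene RBCS (log2 1.31 ± 0.22 SE, 2.49-fold, adjusted p = 0.000426) and the photosystem I gene PSAG (0.59 ± 0.16 SE, adjusted p = 0.0219), and so was the stem marker OSH6 (0.38 ± 0.12 SE, adjusted p = 0.0454). RBCS had group means of 6.61 to 8.18 in root and of 14.4 to 14.5 in leaf. In leaf none of the 4 leaf markers was called between the parents, with 1 at an unadjusted p under 0.05, and neither was LSI1. The part of these markers in the members' differences was not tested.

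MADS26, whose leaf values are given above, did not overlap between the parents within either nutrient state of the leaf. The parental difference was log2 1.39 ± 0.15 SE (adjusted p = 4.26e-06), with means of 7.29 in 9311 and 5.90 in PA64s. The fertilised PA64s leaf arrays, at 5.12 to 5.56, were all under the filter level, so its size is uncertain. In root the parental difference was -0.22 ± 0.17 SE and did not pass.

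MADS55 in leaf was at 10.1, 10.1 and 9.49 in unfertilised and 10.4, 10.0 and 10.2 in fertilised 9311, and at 9.30, 9.37 and 8.52 in unfertilised and 9.29, 9.60 and 9.51 in fertilised PA64s. The parents were apart within each state, and 9311 was 1.72-fold higher (log2 0.78 ± 0.16 SE, adjusted p = 0.00238). In root the difference of 0.57 ± 0.20 SE did not pass (adjusted p = 0.0708), but it was called with all 36 arrays in 1 fit (adjusted p = 0.0387).

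MADS50 was at 8.98, 9.02 and 8.85 in unfertilised and 9.19, 8.92 and 9.03 in fertilised 9311 leaves, and at 8.52, 8.62 and 8.21 and at 8.55, 8.50 and 8.90 in PA64s leaves. The parents were apart within each state in both tissues. 9311 was higher by log2 0.45 ± 0.10 SE in leaf (adjusted p = 0.00601) and by 0.72 ± 0.09 SE in root (1.65-fold, adjusted p = 2.96e-05). Of the members, MADS50 and MADS2 were called between the parents in both tissues, each in the same direction.

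MADS2, a class B gene of stamens and lodicules, was at 7.21, 7.55 and 7.26 in unfertilised and 6.92, 7.41 and 7.82 in fertilised 9311 roots. In PA64s roots it was at 8.49, 8.48 and 8.46 unfertilised and at 7.93, 7.94 and 7.88 fertilised. All 6 PA64s arrays exceeded all 6 of 9311, and the difference was log2 -0.83 ± 0.12 SE (1.78-fold, adjusted p = 0.000157). In leaf PA64s was higher as well, at log2 -0.42 ± 0.12 SE (adjusted p = 0.0299), but that call was lost without any of 7 arrays of the parents, replicates 1 and 2 of the fertilised and 1 and 3 of the unfertilised 9311 leaves, and replicate 1 of the fertilised and 2 and 3 of the unfertilised PA64s leaves (-0.43 to -0.34).

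MADS14 in roots was at 8.06, 8.32 and 8.28 in unfertilised and 8.46, 8.82 and 8.72 in fertilised 9311. In PA64s it was at 7.87, 7.59 and 8.02 and at 7.64, 7.58 and 7.47. All 9311 arrays exceeded all PA64s arrays, by a mean of log2 0.75 ± 0.11 SE (1.68-fold, adjusted p = 0.000185). Its second probe set gave 0.24 (adjusted p = 0.0359), and its 2 dimmest ones, which were not tested, gave 0.02 and -0.06.

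MADS25 was lower in 9311 roots, at 8.36, 8.62 and 8.67 unfertilised and 8.28, 7.18 and 7.47 fertilised, than in PA64s roots, at 9.79, 9.31 and 8.76 and at 9.38, 8.63 and 8.38. The parents were apart within each state, though unfertilised 9311 overlapped with fertilised PA64s, and the difference was log2 -0.95 ± 0.23 SE (1.93-fold, adjusted p = 0.0106). In leaf MADS1 was higher in PA64s by log2 -0.67 ± 0.15 SE (adjusted p = 0.00651). Its entry to the fit came through fertilised LYP9 and PA64s leaves alone, so this is given as a description. Its 9311 leaf arrays, at 5.08 to 5.73, were all under the filter level, and the size is uncertain. MADS16 was higher in 9311 leaves by 0.42 ± 0.09 SE (adjusted p = 0.00307), a call lost with all 36 arrays in 1 fit (adjusted p = 0.0784).

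**Figure D5:**
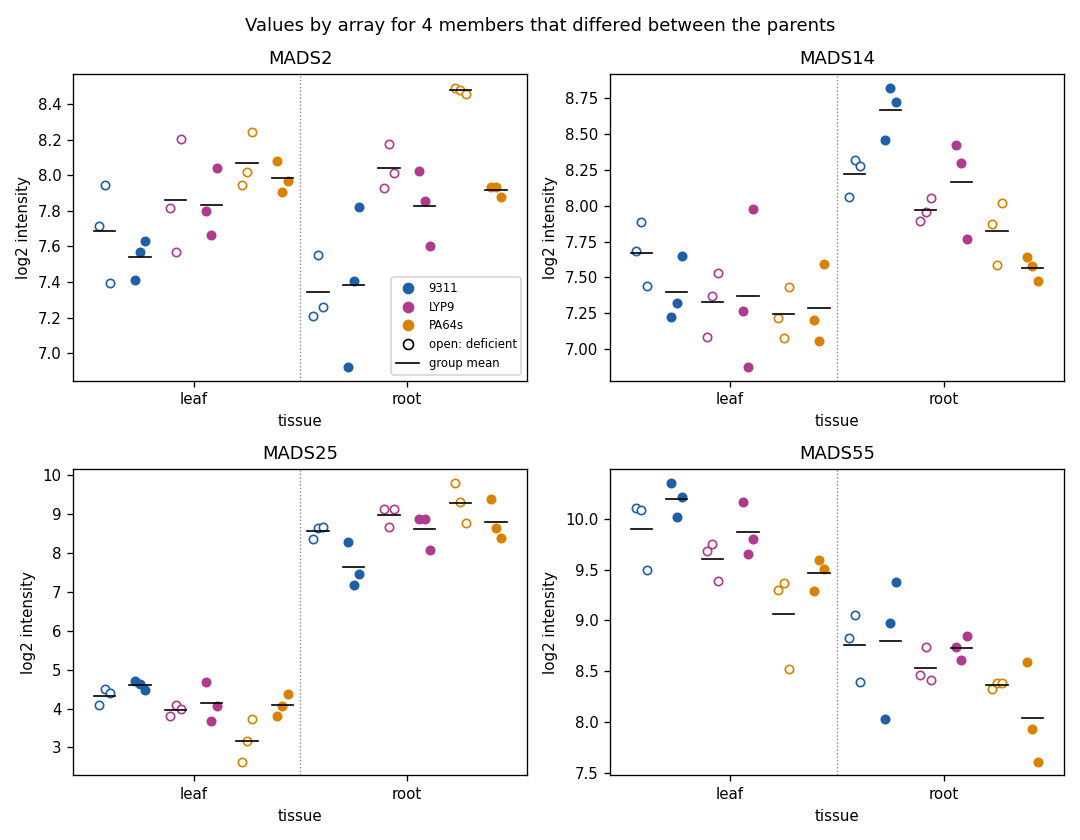
Log2 intensity (y axis) by array of MADS2, MADS14, MADS25 and MADS55 in leaf and root (x axis), coloured by genotype, with filled points for fertilised and open points for unfertilised arrays and black bars for the means of 3 arrays. In root the orange PA64s points of MADS2 lie above the blue 9311 points and those of MADS14 below them.

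The hybrid was set against the mean of its parents on the log2 scale. No member was called in leaf, where 0.822% of all probe sets were called in the fertilised and 0.906% in the unfertilised state, nor in root, where 0.72% and 0.513% were. At an unadjusted p under 0.05 stood 3 members in fertilised and 1 in unfertilised leaves, 0 in fertilised and 1 in unfertilised roots. The members' median deviations were log2 0.04 and 0.06 in fertilised and unfertilised leaves and 0.11 and 0.05 in roots, beside 0.04, 0.04, 0.00 and 0.01 over all probe sets. The LYP9 mean lay between the parental means for 8 of 14 members in fertilised and 9 of 14 in unfertilised leaves, where 52.9% and 44.1% of all probe sets did. In roots it did so for 9 and 7 of 13, beside 69.4% and 40.7%.

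MADS18 and MADS56 were the members tested in leaf whose LYP9 mean stood above both parental means in each state. For MADS56 the deviations from the mid-parent were log2 0.04 ± 0.11 SE in fertilised and 0.11 ± 0.11 SE in unfertilised leaves. For MADS18 in unfertilised leaves all 3 LYP9 arrays, from 9.23 to 9.30, exceeded every array of the parents, of which the highest was at 9.17. The deviation of MADS18 was log2 0.48 ± 0.15 SE (adjusted p = 0.317). Without replicate 1 of the unfertilised 9311 leaves it was 0.60 and was called (adjusted p = 0.0173), the only member then called. In fertilised leaves it was 0.50 ± 0.15 SE (adjusted p = 0.340), and the arrays overlapped with those of PA64s. MADS16 in fertilised leaves stood at 10.2, 10.0 and 9.91 in LYP9, and its deviation of 0.34 ± 0.11 SE did not pass (adjusted p = 0.378).

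No member's nutrient response was called as different between the parents, in leaf (0.0175% of all probe sets) or in root (0.00874%), and none changed its deviation from the mid-parent with fertiliser, in leaf or in root, where 0% of all probe sets did. At an unadjusted p under 0.05 stood 1 member in leaf and 3 in root for the parents' responses, and 1 and 0 for the deviations. The 3 in root were MADS50, MADS14 (log2 0.71 ± 0.23 SE, adjusted p = 0.348) and MADS2 (0.60 ± 0.25 SE, adjusted p = 0.383).

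Other genes of flowering time were read from a list of 34 names, of which 15 were measured. In leaf 12 were tested, and limma called 1 higher and 1 lower in 9311, 1 lower in LYP9 and 0 in PA64s, where 4 had an unadjusted p under 0.05. HD1 (LOC4340746), the photoperiod regulator of flowering, was lower in fertilised 9311 leaves by log2 -1.10 ± 0.30 SE (adjusted p = 0.0237) and in LYP9 leaves by -1.15 ± 0.30 SE (adjusted p = 0.0248). In PA64s leaves HD1 was not called, though its arrays did not overlap, at 8.31 to 8.44 unfertilised and 7.07 to 7.86 fertilised. The red-light receptor PHYB (LOC4332623) was higher in fertilised 9311 leaves by 0.81 ± 0.24 SE. In root 11 were tested and 1 was called, EHD4 (LOC4331372), an activator of flowering, lower in 9311 by -0.62 ± 0.15 SE. In LYP9 and PA64s roots 0 were called, with 1 at an unadjusted p under 0.05 in each. The florigen gene HD3A, a target of the flowering pathway, was under the filter level in the means of all groups, at 4.99 to 5.45. In leaf the list's median log2 changes were -0.01, 0.00 and 0.03 in 9311, LYP9 and PA64s, beside the 0.06, 0.07 and 0.07 over all probe sets.

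Of 18 names of nitrate uptake and response, 7 genes were measured, 6 of them tested in leaf and 7 in root. NLP1 (LOC4331508), a NIN-like transcription factor of the nitrate response, was lower in all 3 fertilised roots, by log2 -1.41 ± 0.20 SE in 9311, -1.12 ± 0.20 SE in LYP9 and -0.92 ± 0.20 SE in PA64s, and lower in the leaves of 9311 (-1.13) and PA64s (-1.08). The nitrate-induced repressor NIGT1 (LOC4329184) was higher in fertilised roots of 9311 by 2.098 ± 0.53 SE (adjusted p = 0.0331) and of LYP9 by 2.17 ± 0.53 SE (adjusted p = 0.0357). In PA64s roots it was not called, though its arrays did not overlap, at 6.24 to 7.765 unfertilised and 8.11 to 9.18 fertilised. Its mean root response over the genotypes was called by limma at 2.02 ± 0.31 SE (adjusted p = 0.000317). The high-affinity nitrate transporter NRT2.3 (LOC4324249) was lower in fertilised leaves of 9311 (-0.86 ± 0.18 SE) and LYP9 (-1.07 ± 0.18 SE). In PA64s leaves it was not called, though its arrays did not overlap, at 5.99 to 6.41 unfertilised and 5.42 to 5.74 fertilised. The fertilised leaf arrays of all 3 genotypes, at 5.05 to 5.74, were under the filter level of 5.753, so the sizes are uncertain. The calls named here were all those of the list in the nutrient responses of single genotypes. Its median log2 changes in 9311, LYP9 and PA64s were -0.33, -0.39 and -0.39 in leaf and 0.20, -0.01 and -0.04 in root. The ANR1-like MADS27 was called in none of these roots, at log2 -0.26, -0.02 and 0.05 in 9311, LYP9 and PA64s, each ± 0.22 SE, and neither was MADS25 at -0.91, -0.36 and -0.49, each ± 0.32 SE.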

How the data were processed

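Rice leaf and root RNA was hybridised to Affymetrix arrays, per the labels. The authors deposited linear intensities. None was below 1, and they were scaled by a method not given in the sources used here. RMA and affy appear in the submitters' processing notes, with neither role nor version. Values were taken to log2 once. The 187 control probe sets were left out of 57381, and 95 tied to several genes were not named. The annotation and RefSeq gene names gave symbols, and no coordinates were used.

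In R 4.3.3 with limma 3.58.1, group means were fitted per tissue (18 arrays, 12 residual degrees of freedom) or over 36 arrays for leaf against root, on the upper 60% of probe sets by mean log2 (34316). eBayes tests were 2-sided, with Benjamini-Hochberg adjustment over all probe sets kept and calls under 0.05. The code was tested on simulated data.

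Members, lists and tests were chosen with earlier results of these data known, and the mean nutrient responses were added later. Values by array are given for members called and above the filter level in a group, and of a list up to 3 called genes per direction. Alternatives covered the filter, normalisation, moderation, samples in the fit, probe sets, a replicate block and leaving out each array. Deviations of same-numbered arrays correlated over 0.1 in 6 of 9 leaf and 3 of 9 root pairs of nutrient states (-0.21 to 0.51), in 15 of 18 leaf and 9 of 18 root pairs of genotypes and in 12 of 18 pairs of leaf and root. All 9 pairs of genotypes were over 0.1 in fertilised leaves (0.18 to 0.62), so there the numbers pair the arrays, by the data and not the labels, and elsewhere they were not taken as pairs. The 3 arrays per group limit the precision.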

Additional observations from a re-analysis of the deposited data

Results flagged for a closer look

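For 5 members the mean nutrient response differed between leaf and root by the test of the difference itself, leaf minus root on the log2 scale, in limma's joint fit of 36 arrays. The differences were -1.02 for MADS26, 1.04 for MADS25, 0.71 for MADS50, -0.40 for MADS47 and -0.30 for MADS4. The leaf values of MADS25 were all under the filter level, so its difference is not read as a leaf response. The calls of MADS26, MADS50, MADS47 and MADS4 held without each array in turn. That of MADS25 did so too, but the gene entered the fit through root alone, so this is no support for its call. No explanation was tested. Groups of 3 arrays are too small to look for single arrays that stand apart.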

How the results depend on the processing

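No alternative reversed a called difference except another probe set of the gene: MADS15 between tissues was at -0.0485 and -0.4175 by 2 of its other probe sets, and MADS14 was at 0.0274 between tissues and -0.0614 between the parents in root by its dimmest. Of 51 member calls, 32 were lost under no alternative in which the gene was tested, and 39 in no such fit without 1 array. These tallies include the tissue calls of MADS15, MADS25 and MADS27, the response difference of MADS25 and the leaf calls of MADS1. Those calls depend on how the gene entered the fit, so the tallies are not read as support for them. A fit in which the gene fell under the filter and was not tested is not counted as losing its call. With 1 array left out, the MADS1 calls were tested in 16 of 18 leaf fits. The MADS15 call between tissues was tested in 31 of 36 joint fits. Whether these calls would hold in the remaining fits was not tested. Of 20 comparisons, 11 kept their number of members called within 1.5 times. With the upper 40% of probe sets, where fewer members are tested, LYP9 and PA64s leaves had 1 member called each and the mean leaf response 3. With no filter, which tests all 30 members, 9311 roots had 0, the tissue comparison 22, its response difference 9 and the mean leaf response 11. With all 36 arrays in 1 fit, 9311 roots had 2. The shares of all probe sets called under these settings are not given here. These counts are therefore not read as more or fewer than the background.

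Without each array in turn, the number of members called ran in leaf from 1 to 3 in 9311, 2 to 3 in LYP9, 1 to 3 in PA64s, 5 to 6 between parents and 0 to 1 for the unfertilised hybrid. In root it ran from 0 to 1 in 9311, 0 to 3 in LYP9, 2 to 3 in PA64s and 4 to 6 between parents. Of the 14 in the joint fit it was 11 to 12 between tissues and 5 to 6 for the difference in response. The tissue range includes MADS15, MADS25 and MADS27, whose differences were fixed by their entry, so it is no support for them. No tissue call was lost in a fit that tested the gene, and the count of 11 comes from fits in which MADS15 was not tested. In the fits per tissue it was 4 to 9 for the mean leaf and 3 to 5 for the mean root response. With the replicate block the counts were 3, 3 and 3 for 9311, LYP9 and PA64s leaves and 1, 2 and 2 for their roots, as without it, and the mean leaf response had 8, with MADS4 and MADS55 added. The block changed no other call. In the fertilised hybrid's leaf, where the numbers pair the arrays, 0 members were called with the block as without it. Brightness limits what can be read of the 14 members above the filter level in no group.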

Other observations

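MADS8, a SEPALLATA-like floral gene, was at 7.52, 5.28 and 6.99 in the fertilised 9311 roots and between 4.92 and 5.51 in the 15 other root arrays. It did not pass the filter in root. With no filter its change in 9311 roots was log2 1.25 ± 0.37 SE and was not called by limma (adjusted p = 0.0760), and this value was chosen after it had been seen. MADS30, a Bsister gene, was under the filter level in every array, yet its 3 fertilised leaf arrays exceeded the 3 unfertilised ones in each genotype, with group means of 4.23 and 5.12 in 9311, 4.46 and 5.06 in LYP9 and 4.43 and 4.96 in PA64s. With no filter limma called this rise in 9311 (log2 0.89 ± 0.17 SE, adjusted p = 0.00583) and in the mean over the genotypes (0.67 ± 0.10 SE, adjusted p = 0.000164), and not in LYP9 (0.59 ± 0.17 SE, adjusted p = 0.0597) or PA64s (0.54 ± 0.17 SE, adjusted p = 0.0919). In that fit 4 more members under the filter level in leaf were called in the mean leaf response, MADS25 higher (0.45) and MADS27 (-0.34), MADS34 (-0.29) and MADS13 (-0.25) lower. The share of all probe sets called in that fit is not given here.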
